A study of Homo sapiens with 6 samples.

Results

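The genes described here are 34 members of the BCL2 family, the caspases and the machinery that links them, chosen by gene symbol. All 34 had a row in each of the 6 deposited tables, out of 23698 rows, and 33 of them were among the 13668 genes with enough counts to test. By class there were 5 anti-apoptotic genes, 3 effectors, 8 BH3-only genes, 2 other BCL2 relatives, 4 initiator caspases with the adaptor FADD, 2 inflammatory caspases, 1 executioner caspase, 5 genes of the apoptosome or of proteins released from mitochondria, and 3 inhibitors of death signalling.

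The cells were MV4-11, an established acute myeloid leukaemia line with an internal tandem duplication in the receptor kinase FLT3. One group of 3 RNA-seq libraries came from cells that stably carried lentiviral shRNA against PRMT5, an arginine methyltransferase, and the other group of 3 from cells given a scrambled vector the same way. Both groups were therefore lentivirally transduced, and the labels state neither the hairpin sequence, nor how many hairpins or clones were used, nor any drug or time. Library totals were 16408484 to 19077106 estimated counts. The labels do not say that the replicates were separate cultures, so p-values measure the spread between these libraries only.

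Mitochondrial apoptosis is decided by binding between BCL2 family proteins. Anti-apoptotic members such as BCL2 and MCL1 hold the effectors BAX and BAK1 in check, and BH3-only proteins, induced or activated by stress, relieve that block. Once BAX and BAK1 permeabilise the outer mitochondrial membrane, cytochrome c joins APAF1 to activate caspase 9, while FADD and caspase 8 carry the signal of death receptors. Acute myeloid leukaemia cells are known for their reliance on BCL2 and MCL1, both of which are drug targets in this disease. Many of these proteins are controlled by cleavage, localisation or turnover, none of which an RNA count shows. In bulk RNA, fewer cells expressing a gene and less RNA per cell cannot be told apart.

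PRMT5, the gene the hairpin targets, was at 103, 71.6 and 52.99 CPM (CPM is the count relative to library size, here with TMM scaling factors) in knockdown 1, 2 and 3. Controls 1 and 3 were at 133 and 158 CPM, whereas the library labelled scrambled control 2 was at 53.2 CPM, a knockdown level. From here on it is called the library labelled SC2, since for PRMT5 its value and its label disagree. Over all genes tested, its log2 CPM correlated at 0.884, 0.909 and 0.880 with knockdown 1 to 3 and at 0.923 and 0.876 with controls 1 and 3. The other 5 libraries correlated with one another at 0.952 to 0.995, so it lay apart from both groups. Whether its label is right was not tested. The PRMT5 log2 difference, knockdown minus control, was −0.60 (SE 0.43), −0.94 without the library labelled SC2, −0.40 without knockdown 3 and −0.29 without control 3. PRMT5 values overlapped between the groups and did not pass the edgeR test, with an unadjusted p of 0.206 and an adjusted p of 0.926. All 10 myeloid markers checked were tested genes, among them CD33 at 43.9 to 53.8 CPM and SPI1 at 121 to 158 CPM. The library labelled SC2 stood apart in both directions within this list. LYZ and MPO, which encode granule proteins, were lowest there, at 35.3 and 13.8 CPM. HOXA9 and MEIS1, homeobox genes of MLL-rearranged leukaemia, were highest there, at 296 and 102 CPM, against 78.5 to 96.2 and 18.3 to 32.9 CPM in the other 5 libraries. ITGAM was also highest there, at 115 CPM, with knockdown 2 next at 85.2 CPM. SPI1 was lowest there by a small margin, at 121 CPM, with knockdown 1 next at 127 CPM. CD33, CEBPA, FLT3 and CSF1R were at neither end in that library. Other libraries stood apart as well. MPO was at 503 CPM in control 1, and CSF1R and ITGAM were lowest in knockdown 1, at 2.40 and 16.4 CPM. T cell, B cell and erythroid markers had at most 16, 14 and 0 counts in any library, with CD79A, CD3D and HBB among those looked at. The 3 fibroblast markers had at most 77 counts, and summed to 4.99 CPM in the library labelled SC2 and to 0.052 to 0.47 CPM in the other 5. The 4 epithelial markers summed to 17.0 to 28.1 CPM with PRMT5 shRNA and 15.3 to 52.1 CPM for controls 1 to 3 as labelled, the highest sum being that of the library labelled SC2, and most of it was KRT8 and KRT18. Whether these differences take part in the results on the member genes was not tested.

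No member gene separated the groups after correction. Of 33 tested, 0 had an adjusted p under 0.05 in edgeR's quasi-likelihood test, as did 0% of all genes tested, and the smallest adjusted p of a member was 0.926. One member, BAX, had an unadjusted edgeR p under 0.05, or 3.03% of the members beside 1.77% of all genes tested. DESeq2 and limma-voom also called 0 members and likewise had only BAX at an unadjusted p under 0.05, among 461 and 117 such genes, beside 242 in edgeR. The values of the groups did not overlap for 2 members, BAX and BCL2L1, both higher in the knockdown (6.06% of members, beside 3.14% of all genes). No member lay wholly lower in the knockdown, beside 3.1% of all genes. Of the members, 16 had a positive and 17 a negative log2 difference with a median of −0.0047, and the median over all genes tested was −0.00069.

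**Figure D1:**
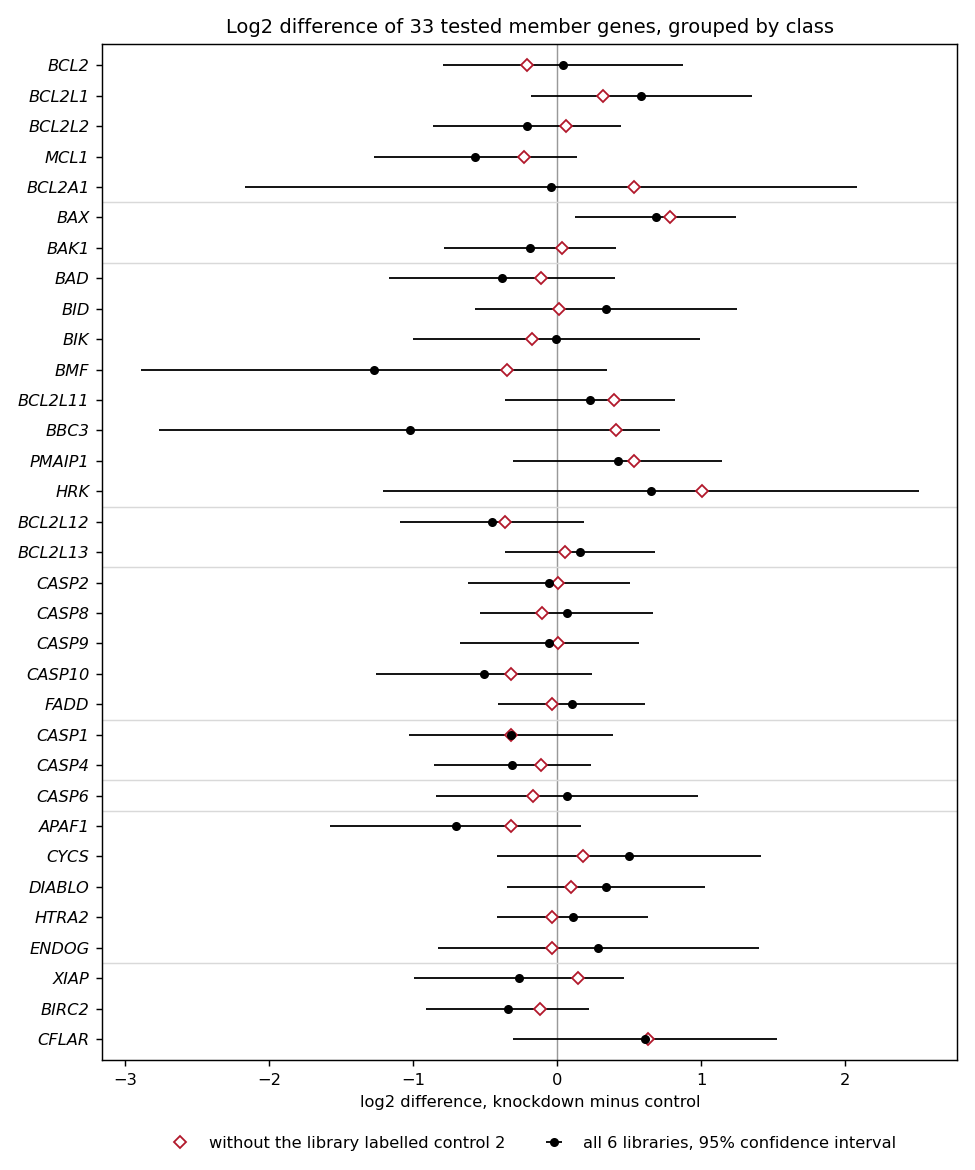
Log2 difference (x axis, knockdown minus control) of the 33 tested member genes (y axis, grouped by class) with 95% confidence intervals from edgeR (black), and the difference without the library labelled scrambled control 2 (open diamonds). BAX is the only gene whose interval, 0.13 to 1.24, lies wholly on one side of 0.

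Among the anti-apoptotic genes, BCL2L1 was higher in the knockdown libraries and MCL1 had lower values, and neither passed the test. BCL2L1, on chromosome 20, encodes BCL-XL, which restrains BAX and BAK1 at mitochondria. It was at 20.7, 18.2 and 19.2 CPM for knockdown 1 to 3, at 14.5 and 16.6 CPM for controls 1 and 3, and at 7.59 CPM for the library labelled SC2. All 3 knockdown libraries lay above all 3 controls, the nearest values being 18.2 and 16.6 CPM. The log2 difference was 0.59 (SE 0.33, 95% confidence interval −0.18 to 1.35), and 0.32 without the library labelled SC2, so the lowest control set a large part of its size.

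MCL1, on chromosome 1, encodes a short-lived survival protein and had the highest CPM of the anti-apoptotic genes. It was at 247, 184 and 273 CPM with PRMT5 shRNA, at 278 and 272 CPM for controls 1 and 3, and at 493 CPM for the library labelled SC2. Knockdown 3 lay between controls 1 and 3, the library labelled SC2 was highest and knockdown 2 lowest. The log2 difference was −0.57 (SE 0.30, 95% confidence interval −1.27 to 0.14), −0.23 without that library and −0.085 when knockdown 2 was left out with it. BCL2, on chromosome 18, the target of venetoclax, was at 165, 97.1 and 101 CPM with PRMT5 shRNA and 168, 73.3 and 112 CPM for controls 1 to 3 as labelled. Its spread within each group, from 97.1 to 165 and from 73.3 to 168 CPM, was far larger than the difference between group means, 121 ± 38.1 and 118 ± 47.7 CPM (SD, n = 3 each). BCL2L2, which encodes BCL-W, ranged from 26.7 to 49.5 CPM and BCL2A1, which encodes BFL-1, from 0.88 to 9.78 CPM. BCL2A1 had 17 to 161 counts per library, and its interval of −2.17 to 2.08 was among the widest.

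BAX had the smallest p of the members and one of 2 sets of values without overlap. On chromosome 19, it encodes an effector that oligomerises in the outer mitochondrial membrane. It was at 168, 141 and 105 CPM for knockdown 1 to 3 and at 75.1, 97.1 and 85.6 CPM for controls 1 to 3 as labelled. Every knockdown library was above every control, knockdown 3 by the least. The group means were 138 ± 31.2 and 86.0 ± 11.0 CPM (SD, n = 3 each), and the log2 difference was 0.68 (SE 0.24), a 1.61-fold higher level. In edgeR the unadjusted p was 0.0227 and the adjusted p 0.926, so BAX did not pass over 13668 genes. In the pairs of equal number, 1 to 3, BAX was higher by 1.16, 0.54 and 0.30 (log2). The difference stayed between 0.51 and 0.84 under all 15 alternative settings, the lower value being without knockdown 1 and the higher without knockdown 3, and the adjusted p between 0.529 and 1.00. Unlike that of BCL2L1 and MCL1, it was larger, 0.78, without the library labelled SC2.

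The other effectors did not show this. BAK1, which acts alongside BAX, was at 32.5 to 44.3 CPM with PRMT5 shRNA and 34.4 to 54.8 CPM for controls 1 to 3 as labelled, with a log2 difference of −0.19 (SE 0.26). BOK, a BAX relative, had 1 to 14 counts per library and was not tested.

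**Figure D2:**
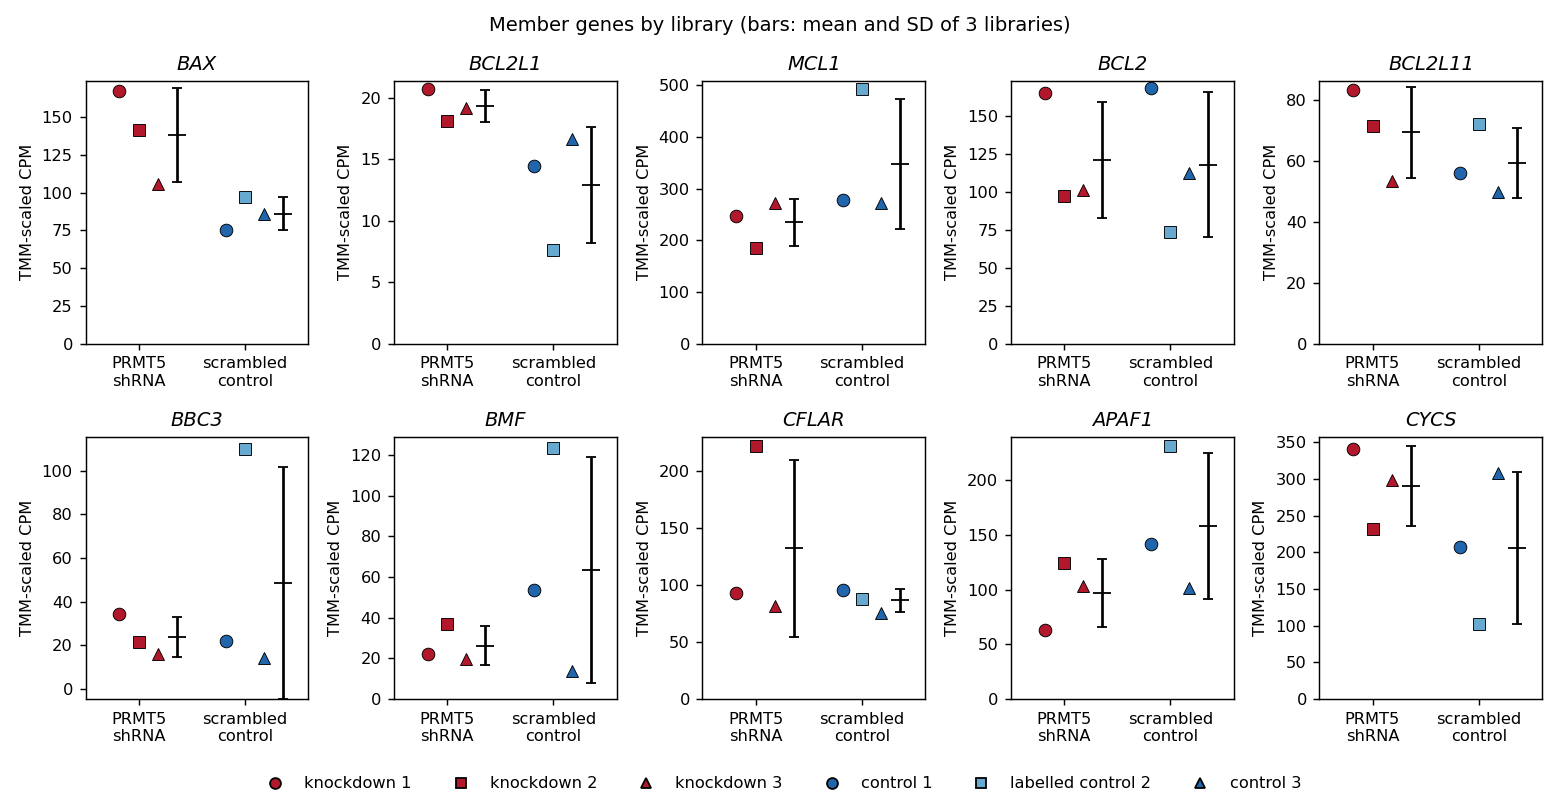
TMM-scaled CPM (y axis, one scale per gene) of 10 member genes in each library, with the group mean and SD beside the points. The 3 knockdown values of BAX and of BCL2L1 lie above the 3 control values, while BBC3, BMF, MCL1 and APAF1 have their highest value in the library labelled scrambled control 2 and CFLAR in knockdown 2.

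Promoter sequences are shown for both genes whose groups did not overlap and for CYCS, the most abundant of the genes that were lowest in the library labelled SC2. They are RefSeq sequences of build GRCh38.p14, running from 250 bases before to 50 after the annotated start on the gene's own strand. The annotated start may not be the one used in MV4-11, and these libraries hold no readout of factor binding. Capitals mark motif matches on either strand. The motifs searched were the TATA box (TATAAA), the box bound by NF-Y (CCAAT), the GC box bound by SP1 (GGGCGG), the E-box bound by MYC and its relatives (CACGTG), the CREB site (TGACGTCA), the core of the NRF1 site (CGCATGCG) and the p53 response element unit. They were chosen with the values known. The windows are chr19:48954625-48954924 (plus strand) for BAX, chr20:31723914-31724213 (minus strand) for BCL2L1 and chr7:25125211-25125510 (minus strand) for CYCS.
BAX: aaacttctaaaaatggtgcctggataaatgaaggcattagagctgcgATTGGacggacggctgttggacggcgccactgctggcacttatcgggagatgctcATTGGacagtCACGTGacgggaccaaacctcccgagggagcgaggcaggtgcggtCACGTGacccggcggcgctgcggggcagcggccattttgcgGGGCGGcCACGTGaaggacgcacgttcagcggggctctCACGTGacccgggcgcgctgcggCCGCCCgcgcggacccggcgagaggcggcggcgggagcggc
BCL2L1: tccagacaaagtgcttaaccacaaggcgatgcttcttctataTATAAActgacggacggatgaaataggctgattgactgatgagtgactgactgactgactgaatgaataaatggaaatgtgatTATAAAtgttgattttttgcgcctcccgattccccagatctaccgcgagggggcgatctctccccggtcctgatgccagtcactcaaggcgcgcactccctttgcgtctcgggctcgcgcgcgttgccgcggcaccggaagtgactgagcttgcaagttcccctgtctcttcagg
CYCS: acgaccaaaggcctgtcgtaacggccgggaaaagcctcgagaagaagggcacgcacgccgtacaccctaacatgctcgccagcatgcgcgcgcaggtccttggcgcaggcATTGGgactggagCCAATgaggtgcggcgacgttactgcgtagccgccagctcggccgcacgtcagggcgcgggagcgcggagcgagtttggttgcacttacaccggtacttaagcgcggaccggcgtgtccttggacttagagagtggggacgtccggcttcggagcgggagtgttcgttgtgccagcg

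The BAX window held CACGTG at 4 places, 2 matches each of CCAAT and GGGCGG, and no TATAAA. None of its matches overlapped. Of 35116 promoters of the same length, 7.26% held CACGTG at least once and 5 held it at 4 or more places, BAX included. The BCL2L1 window held 2 matches of TATAAA, which 11.5% of promoters hold, and none of the other motifs, and the CYCS window held 2 matches of CCAAT, present in 34.6% of promoters. Sequences were at hand for 29 of the 34 members. Of those 29, 3 held CACGTG (BAX, BBC3 and DIABLO), 12 held CCAAT and 21 held GGGCGG, which 44.95% of all promoters hold. The p53 unit was found in 1 member, BAK1, and in 6.63% of all promoters. TGACGTCA was found in BIRC2 only and CGCATGCG in FADD only, with 1.85% and 2.02% of all promoters. A match describes the letters of the window and is not evidence of binding.

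The BH3-only genes divided evenly, 4 with positive and 4 with negative log2 differences, and their largest values came from single libraries. BCL2L11, which encodes BIM and had the highest CPM of the class, was at 83.3, 71.4 and 53.5 CPM with PRMT5 shRNA and 55.9, 72.1 and 49.9 CPM for controls 1 to 3 as labelled. The groups overlapped, with a log2 difference of 0.23 (SE 0.25), or 0.067 without knockdown 1, 0.38 without knockdown 3, 0.12 without control 3 and 0.39 without the library labelled SC2. PMAIP1, which encodes NOXA, a partner of MCL1, was at 66.7, 50.5 and 30.7 CPM against 31.4, 42.3 and 36.9 CPM. Knockdown 3 was the lowest of the 6 PMAIP1 values, and the log2 difference was 0.42 (SE 0.31), or 0.13 without knockdown 1 and 0.67 without knockdown 3.

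BBC3, which encodes the p53-inducible protein PUMA, was at 34.2, 21.4 and 15.95 CPM with PRMT5 shRNA, at 21.8 and 14.1 CPM for controls 1 and 3, and at 110 CPM for the library labelled SC2, 3.21-fold above the next library. Its log2 difference was −1.03 (SE 0.75) with that library and 0.41 without it, so its sign came from 1 library. BMF, a BH3-only gene induced by loss of attachment and by histone deacetylase inhibition, was at 22.0, 37.1 and 19.8 CPM against 53.4, 123 and 13.6 CPM. Its log2 difference was −1.27 (SE 0.69), and −0.35 without the library labelled SC2, where it was 2.31-fold above the next library. BCL2, PMAIP1, BBC3, BMF and CASP10 are described by library, and single libraries of some other members named, where the values called for it after they were seen.

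BID, which links caspase 8 to mitochondria, was at 49.6 to 75.7 CPM with PRMT5 shRNA and at 60.3 and 70.0 CPM for controls 1 and 3, with 25.2 CPM for the library labelled SC2. BIK was highest in both libraries numbered 3, at 72.2 and 61.7 CPM, against 28.7 to 37.3 CPM in the other 4, and its log2 difference was −0.0047 (SE 0.43). BAD, a BH3-only gene controlled by survival kinases, ranged from 5.12 to 10.1 CPM. HRK had 2 to 20 counts per library, too few to place, with an interval of −1.21 to 2.51.

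Of the other BCL2 relatives, BCL2L13, a mitochondrial protein gene linked to mitophagy, was at 98.4, 69.9 and 82.5 CPM with PRMT5 shRNA and at 81.5, 63.3 and 79.7 CPM for controls 1 to 3 as labelled. These groups overlapped, with a log2 difference of 0.16 (SE 0.22), or 0.021 without knockdown 1, 0.28 without knockdown 2 and 0.055 without the library labelled SC2. BCL2L12 was at 22.0 to 40.1 against 35.5 to 46.6 CPM, a log2 difference of −0.45 (SE 0.27), −0.27 without knockdown 1 and −0.71 without knockdown 3.

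No caspase separated the groups. CASP2, a nuclear and cytoplasmic initiator and the most abundant of its class by CPM, was at 48.0, 78.7 and 59.8 CPM with PRMT5 shRNA and 58.5, 70.0 and 65.4 CPM for controls 1 to 3 as labelled. The control values lay within the knockdown range, and the log2 difference was −0.056 (SE 0.24). CASP8 ranged from 17.6 to 27.8 CPM, CASP9 from 8.18 to 10.7 CPM and FADD from 27.8 to 39.7 CPM, with log2 differences of 0.065, −0.054 and 0.10. CASP10, a relative of caspase 8, was at 8.93 to 10.9 CPM with PRMT5 shRNA and at 15.4, 17.1 and 8.86 CPM for controls 1 to 3 as labelled. Its log2 difference was −0.51 (SE 0.32), or −0.32 without the library labelled SC2, with control 3 below all 3 knockdown values.

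CASP4, a sensor of intracellular bacterial lipopolysaccharide, was at 33.4, 40.9 and 35.0 CPM with PRMT5 shRNA and 41.1, 56.5 and 38.0 CPM for controls 1 to 3 as labelled. Its values overlapped between groups through knockdown 2 and control 3, with a log2 difference of −0.31 (SE 0.23), or −0.11 without the library labelled SC2. CASP1, the inflammasome caspase, had a difference of −0.32 (SE 0.30), with 20.3 CPM for knockdown 1 and 34.5 to 44.5 CPM elsewhere, and the difference was −0.074 without knockdown 1 and −0.60 without knockdown 3. CASP6, an executioner caspase, was at 4.59, 8.44 and 7.68 CPM against 7.32, 4.22 and 8.18 CPM. Each group held 1 low value, knockdown 1 and the library labelled SC2, and the log2 difference was 0.069 (SE 0.39).

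In the mitochondrial step, cytochrome c and its partner APAF1 had log2 differences of opposite sign, and neither passed the test. CYCS, which encodes cytochrome c, was at 341, 232 and 299 CPM with PRMT5 shRNA, at 207 and 308 CPM for controls 1 and 3, and at 102 CPM for the library labelled SC2. Control 3 was above 2 of the 3 knockdown values, so the groups overlapped. The log2 difference was 0.50 (SE 0.39), 0.18 without the library labelled SC2 and 0.91 without control 3. APAF1, the apoptosome scaffold, was at 63.2, 125 and 104 CPM with PRMT5 shRNA and 142, 232 and 102 CPM for controls 1 to 3 as labelled. Control 3 lay between the knockdown values, and the library labelled SC2 was the highest. The log2 difference was −0.70 (SE 0.37, 95% confidence interval −1.58 to 0.17), −0.32 without the library labelled SC2 and −0.68 with the replicate number as a block, where the unadjusted p was 0.0463 and the edgeR adjusted p 0.709.

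DIABLO, HTRA2 and ENDOG, whose proteins leave mitochondria with cytochrome c and act on IAP proteins or DNA, were each lowest in the library labelled SC2, at 26.2, 29.4 and 11.997 CPM. In the other 5 libraries DIABLO ranged from 46.8 to 59.1 CPM, HTRA2 from 37.8 to 44.0 CPM and ENDOG from 19.2 to 43.5 CPM. Their log2 differences were 0.34, 0.11 and 0.29, and 0.094, −0.037 and −0.039 without that library.

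By CPM, the inhibitors were led by CFLAR, which encodes c-FLIP, the decoy relative of caspase 8. It was at 92.7, 222 and 81.8 CPM with PRMT5 shRNA and 95.6, 88.1 and 75.4 CPM for controls 1 to 3 as labelled. Knockdown 2 stood 2.32-fold above the next library while the other 5 lay close together. The log2 difference of 0.61 (SE 0.39) became 0.016 without knockdown 2. XIAP, which blocks active caspases, was at 39.7 to 46.1 CPM with PRMT5 shRNA, at 38.2 and 38.7 CPM for controls 1 and 3 and at 76.3 CPM for the library labelled SC2. BIRC2, the IAP gene of TNF receptor signalling, was at 34.4 to 41.7 CPM, at 41.6 and 40.4 CPM and at 61.5 CPM in the same order. Their log2 differences were −0.27 (SE 0.31) and −0.34 (SE 0.24), and 0.15 and −0.12 without that library.

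**Figure D3:**
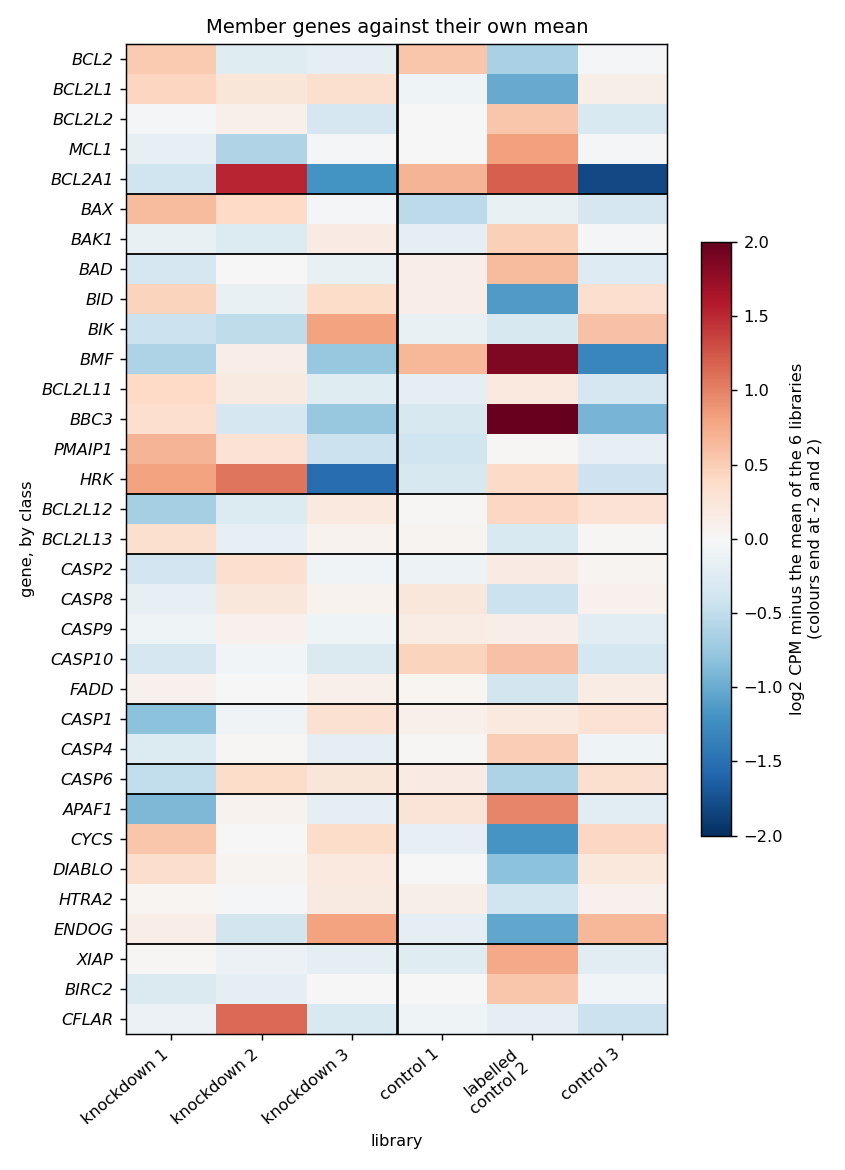
Log2 CPM of each tested member gene (rows, by class) minus that gene's mean over the 6 libraries (columns); red is above and blue below the mean. The library labelled scrambled control 2 is the highest of the 6 for BBC3, BMF, APAF1, MCL1 and XIAP and the lowest for CYCS, BID, ENDOG, BCL2L1 and DIABLO.

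The library labelled SC2 was the highest of the 6 for 12 members and the lowest for 11. Together these were 23 of 33 members, or 69.7%, beside 71.1% of all genes tested, so the share is near the background. It was at least 2-fold above the mean of controls 1 and 3 for 3 members, BCL2A1, BMF and BBC3 (9.09%, beside 15.1% of all genes), and at least 2-fold below it for 4, BCL2L1, BID, CYCS and ENDOG (12.1%, beside 15.2%). By class, its median log2 CPM against the mean of the 6 libraries was 0.56 for the anti-apoptotic genes and 0.55 for the inhibitors. It was −0.82 for the genes of the apoptosome and mitochondrial release, between −0.61 and 0.34 for the remaining classes, and −0.021 over all genes tested. Each of the first 3 classes held members on both sides. BCL2 and BCL2L1 were at −0.64 and −1.01, CFLAR at −0.20 and APAF1 at 0.97. These are comparisons of 1 library with others and carry no test.

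Libraries with the same number had deviations from their group means that correlated positively (r = 0.127, 0.394 and 0.566), so differences were also read within pairs. Knockdown 2 and control 1, of unlike number, correlated at 0.164, above the first pair. Knockdown minus control was positive in all 3 pairs for 5 members, BAX, BCL2L1, BID, BCL2L13 and ENDOG (15.2%, beside 14.6% of all genes). It was negative in all 3 for BCL2L2, BCL2L12 and CASP4 (9.09%, beside 14.1%). Both shares are near or below the background. At least 2-fold differences were found for 6 members in pair 1, namely BAX, PMAIP1, HRK, BMF, BCL2A1 and APAF1 (18.2%, beside 8.1% of all genes). Pair 2 had 6 as well, BCL2L1, CYCS, CFLAR, MCL1, BMF and BBC3 (18.2%, beside 27.7%). Pair 3 had 1, HRK, which rests on 2 and 7 counts (3.03%, beside 0.812%).

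Pair 3 had the largest PRMT5 difference, −1.58 on the log2 scale, and the smallest differences of the member genes. The median absolute log2 difference of the members was 0.099 in the third pair, 0.34 in the first and 0.66 in the second, and that of all genes tested was 0.096, 0.29 and 0.60 in the same order. PRMT5 differed by −0.36 in pair 1 and by 0.43 in pair 2, where the control is the library labelled SC2. In pair 3, BAX differed by 0.30, BCL2L1 by 0.21, CFLAR by 0.12 and MCL1 by 0.0020.

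**Figure D4:**
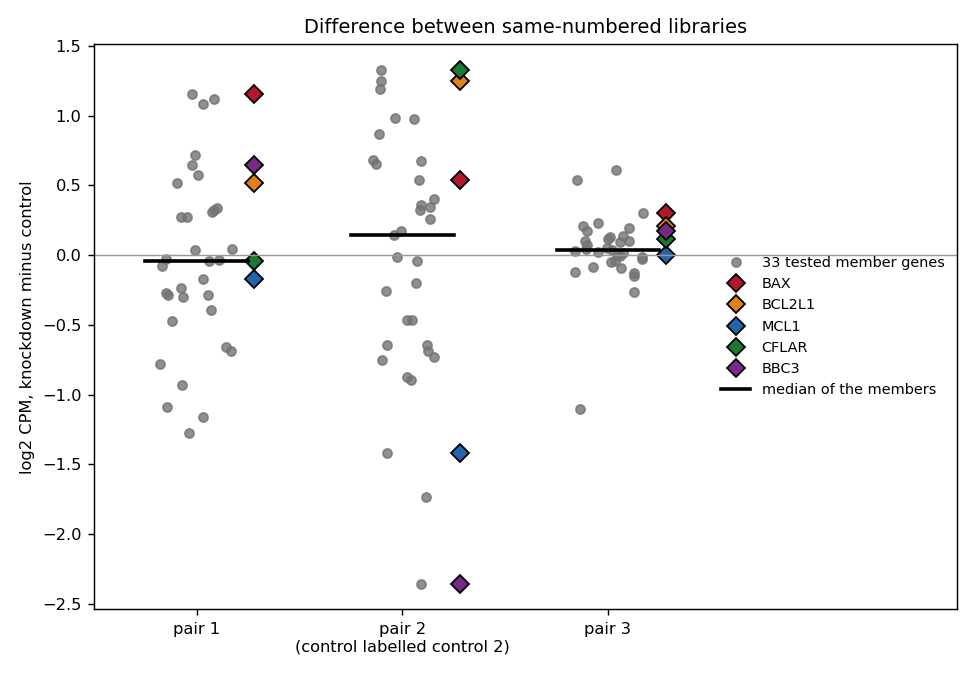
Log2 CPM difference (y axis, knockdown minus control) between libraries of the same number (x axis) for the 33 tested member genes (grey points), with 5 of them repeated as diamonds and the members' median as a bar. The spread is widest in pair 2 and narrowest in pair 3, and BAX and BCL2L1 are above 0 in each pair.

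Ratios of counts between genes within a library do not depend on scaling between libraries. BAX to MCL1 was 0.679, 0.767 and 0.387 in knockdown 1 to 3 and 0.270, 0.197 and 0.315 in the libraries labelled control 1 to 3. All knockdown values were above all control values, with a mean log2 difference of 1.20, or 1.01 without the library labelled SC2. BCL2L1 to MCL1 was 0.0840, 0.0987 and 0.0704 against 0.0520, 0.0154 and 0.0611, again without overlap, and the mean log2 difference was 1.19, or 0.57 without the library labelled SC2. BAX to BCL2 was 1.01, 1.45 and 1.04 in the knockdown and 0.447, 1.33 and 0.762 in the control libraries, so that the groups overlapped through the library labelled SC2. PMAIP1 to MCL1 was 0.270 and 0.275 in knockdown 1 and 2 but 0.113 in knockdown 3, within the control range of 0.0858 to 0.136. CYCS to APAF1 ranged from 1.86 to 5.39 in the knockdown and from 0.439 to 3.02 in the control libraries. Of 8 ratios computed, 2 did not overlap. Both have as numerator a member whose own values did not overlap, BAX or BCL2L1, so they are not a separate result. How often ratios of other genes separate the groups was not computed. The ratios were chosen with the values known, their genes are not matched for length, and no exact permutation p can be smaller than 0.1 at this sample size, so none was tested.

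**Figure D5:**
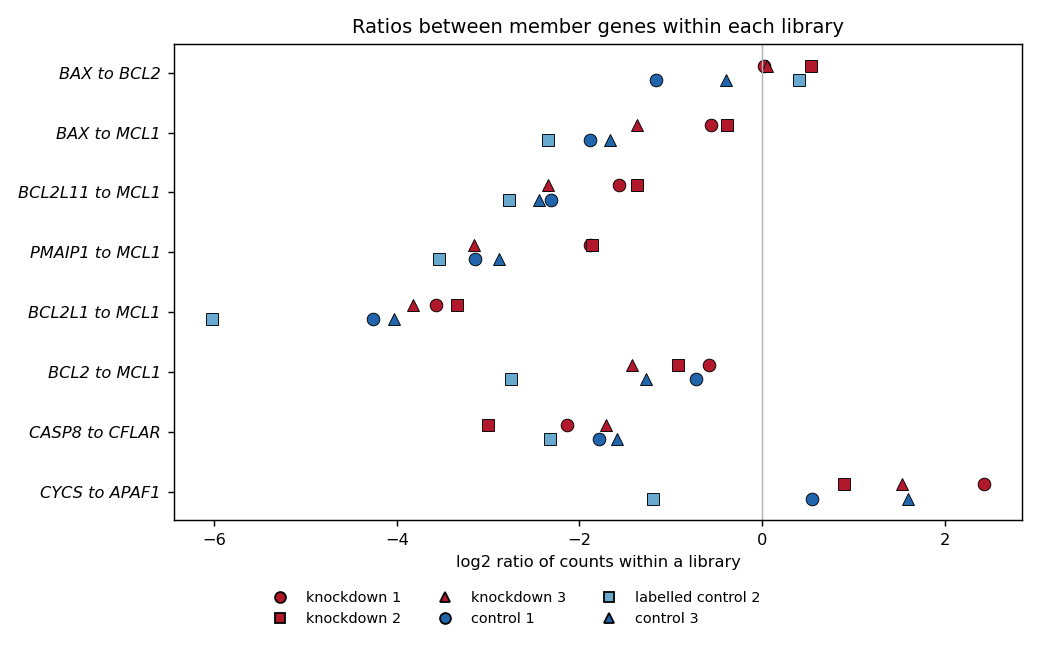
Log2 ratio of counts (x axis) between pairs of member genes (y axis) within each library, knockdown libraries above and control libraries below each line. BAX to MCL1 and BCL2L1 to MCL1 are higher in all 3 knockdown libraries than in any control, and the other 6 ratios overlap.

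Levels of different genes were set side by side per kilobase of the longest coding transcript in GENCODE v29, averaged over the 6 libraries. BAX, MCL1 and CYCS led with 82.5 ± 26.0, 74.0 ± 26.7 and 60.5 ± 21.3 CPM per kilobase (SD, n = 6). These SDs span both groups, so they do not rank the 3 genes. BAX was above MCL1 in knockdown 1 to 3, at 123, 104 and 77.6 against 62.8, 46.8 and 69.3. It was below MCL1 in controls 1 to 3 as labelled, at 55.3, 71.5 and 63.0 against 70.8, 125 and 69.2. BIK followed at 46.1 ± 19.3, then BID, ENDOG, PMAIP1 and DIABLO between 21.1 and 23.5 CPM per kilobase. That order differed between groups, since in the controls BBC3, APAF1 and BCL2L12 averaged 26.4, 22.5 and 22.4 CPM per kilobase. BID, ENDOG, PMAIP1 and DIABLO averaged 20.8, 20.9, 18.9 and 18.7 CPM per kilobase there. The library labelled SC2 weighed on these means. In it BBC3 and APAF1 were at 59.8 and 32.8, against 11.9 and 20.1 in control 1 and 7.69 and 14.4 in control 3. BID, ENDOG and DIABLO were lowest in it, at 10.1, 10.2 and 11.6 CPM per kilobase. BCL2L12 and PMAIP1 lay closer together across the controls, at 19.2 to 25.1 and 16.1 to 21.7. BCL2 was at 16.02 ± 5.18 and BCL2L1 at 6.18 ± 1.80 CPM per kilobase. In the knockdown libraries the mean level per kilobase was 102 for BAX and 59.6 for MCL1, and in the controls 63.3 and 88.4. At the low end CASP9 and CASP10 were near 2.15 and 1.98, and BOK and HRK at 0.14 and 0.11 CPM per kilobase. The transcript used in these cells is not known, and a long annotated transcript, such as the 14672 bases taken for CFLAR, lowers this value.

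Other genes of the pathway, from fixed lists, gave no call either. In 6 lists, no tested gene had an adjusted p under 0.05 in edgeR, nor an unadjusted p under 0.05. Of 12 tested death receptor, ligand and complex genes, 6 had positive and 6 negative log2 differences (median −0.0044). FAS, the receptor for FAS ligand and a p53 target, was at 30.9, 21.1 and 20.8 CPM with PRMT5 shRNA and 17.5, 18.7 and 16.2 CPM for controls 1 to 3 as labelled. Its groups did not overlap, with a log2 difference of 0.47 (SE 0.25) and an edgeR adjusted p of 0.926, and the difference was 0.25 without knockdown 1. TNFRSF10C, a decoy receptor, was at or below 2.85 CPM in every library. CASP5, an inflammatory caspase, had a log2 difference of 0.63 (SE 0.45), or 0.20 without knockdown 1.

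In the list of other BCL2-related genes, 3 of 10 tested had positive differences, and the largest value was that of BNIP3, a hypoxia-induced mitochondrial protein gene, at −1.27 (SE 0.70), or −1.99 without knockdown 2. BNIP3 was at 16.4, 44.0 and 13.2 CPM with PRMT5 shRNA and 79.0, 83.4 and 14.6 CPM for controls 1 to 3 as labelled, with low values in knockdown 1 and in both libraries numbered 3. TMBIM6, an inhibitor of BAX-induced death, was at 431 to 730 CPM against 424 to 518 CPM, a difference of 0.40 (SE 0.26), or 0.26 without knockdown 2 and 0.60 without knockdown 3. Of 4 other tested IAP genes 1 was positive, with BIRC5 and BIRC6 at −0.18 and −0.086. In the list of mitochondrial permeability and DNA fragmentation genes, 3 of 7 were positive. DFFA, the inhibitor of the caspase-activated nuclease, was at 43.1, 55.8 and 37.7 CPM against 35.97, 21.1 and 36.9 CPM, not overlapping but closest between knockdown 3 and control 3, with a difference of 0.54 (SE 0.29), 0.32 without the library labelled SC2 and 0.15 without both libraries numbered 2. VDAC3 had −0.34 (SE 0.24), −0.23 without knockdown 1 and −0.59 without knockdown 3. Of 6 tested pyroptosis genes 3 were positive, with NLRP3 at −0.32 (SE 0.23), −0.17 without knockdown 2 and −0.53 without knockdown 3, and IL18 at −0.99 (SE 0.87), the latter 0.24 without the library labelled SC2.

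Some of these counts may include reads of neighbouring genes. In GENCODE v29, exons of 10 members overlap those of another gene present in the tables. For 9 of them the overlap with such genes is on the opposite strand only. Examples are IRF3 for BCL2L12, AUP1 and LOXL3 for HTRA2, CFLAR-AS1 for CFLAR and BOK-AS1 for BOK. BCL2L2 shares exons on its own strand with the read-through gene BCL2L2-PABPN1. Whether the counting used strand is not given in the sources used here, so values of these members are less certain. Genes that have no row in the tables overlap members as well. On the member's own strand these include ADAMTSL4-AS1 for MCL1, AC007283.1 for CFLAR and AC048338.1 for DIABLO. ABALON overlaps BCL2L1 on the opposite strand. Reads of such neighbours could have been counted to the member. No overlap was found for BAX.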

How the data were processed

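RNA-seq was run on poly(A) RNA of 6 MV4-11 libraries, 3 per group, per the labels' protocols. Each deposited file lists estimated counts by gene symbol, unscaled. Between 40.3% and 42.3% of the entries were whole numbers (tolerance 1e-06), and values were rounded before any count model. Per the submitters' processing notes, hg19, TopHat2 (2), CASAVA (1.9) and edgeR were used, with no roles stated. Which counter and annotation were used, and whether strand was, is not given in the sources used here.

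Genes passing filterByExpr (minimum count 10) were tested over the whole table with edgeR 4.0.16 in R 4.3.3 (TMM, glmQLFit, glmQLFTest, group as the only term, two-sided, Benjamini-Hochberg over 13668 genes, threshold 0.05). SEs and intervals come from that fit, and 2 was the prior count for log2 CPM. Libraries held 16408484 to 19077106 counts. No molecular identifiers are mentioned, so reads may repeat a molecule and intervals may be too narrow for low counts. Members, lists, ratios and motifs were chosen with earlier results of these data known.

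By the rule for named genes, a member was given by library where its groups did not overlap, where its unadjusted p was under 0.1, or where it had the highest CPM of its class. Some others were added after their values were seen. Other lists gave up to 2 genes with the smallest p, and genes of these lists that are not named are not reported here. Same-numbered libraries correlated in their deviations from the group means (r = 0.127, 0.394 and 0.566), so differences were also described within pairs. The main fit held no term for pairs, and the replicate block was an alternative setting only. Of the 6 unlike-numbered combinations, knockdown 2 with control 1 reached 0.164 and the other 5 were below 0, and by log2 CPM knockdown 2 correlated best with control 1 (0.976, and 0.909 with its own number). That pairing comes from the values, since the labels state no shared day or batch. Other settings were scaling by total counts, upper quartile or RLE, 2 further filters, DESeq2 1.42.0, limma-voom (limma 3.58.1), a replicate block, each library left out, and both libraries numbered 2 left out. On counts simulated for this comparison over 13668 genes, the share recovered by edgeR was 6% at 2-fold, 76% at 4-fold and 100% at 8-fold, and 7 unchanged genes were called. A true 2-fold change of a single member would therefore mostly be missed. The simulation gave every gene the same dispersion (coefficient of variation 0.373) and seeded no change in genes below a minimum level. It held no pairs and no library that stood apart. SEs of BCL2A1, BBC3 and BMF were 0.91, 0.75 and 0.69, beside a median of 0.33 over all genes tested. The recovered shares may therefore be too high for such members.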

Additional observations from a re-analysis of the deposited data

How the results depend on the processing

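With every alternative, 0 members and 0 genes overall were called, and 15 to 18 members were higher in the knockdown libraries. The members' median stayed between −0.097 and 0.079. Fitting pairs through a replicate block, the smallest adjusted p over all genes was 0.709 in edgeR, 0 genes were called, 436 had an unadjusted p under 0.05, and the members' median was −0.047; the block changed no call. The sign of the log2 difference turned for 14 of the 33 tested members under some setting and for 19 under none. The cause was not tested. Leaving out 1 library at a time gave ranges of −0.25 to 0.38 for BCL2, −0.39 to 0.064 for BCL2L2, −1.26 to 0.53 for BCL2A1, −0.33 to 0.033 for BAK1, −0.57 to 0.32 for BIK and −1.46 to 0.41 for BBC3. It gave −0.26 to 0.094 for CASP2, −0.10 to 0.20 for CASP8, −0.17 to 0.013 for CASP9, −0.035 to 0.21 for FADD and −0.16 to 0.29 for CASP6. It gave −0.037 to 0.20 for HTRA2, −0.085 to 0.82 for ENDOG and −0.44 to 0.15 for XIAP. Of the other genes named, BIRC5 ranged from −0.59 to 0.14, BIRC6 from −0.22 to 0.19 and IL18 from −1.88 to 0.24. Without the library labelled SC2, 13 members turned. With both libraries numbered 2 left out, the differences were −0.076 for BCL2, 0.12 for BAK1, 0.054 for BIK, 0.48 for BBC3, −0.20 for CASP8, −0.0035 for FADD, −0.34 for CASP6, 0.16 for XIAP and 0.17 for BIRC6. BIK was at 0.0058 under upper quartile scaling, 0.033 under total counts and 0.0010 with no filter, and BCL2A1 at 0.040 under total counts. Leaving out control 3 raised the members at an unadjusted edgeR p under 0.05 from 1 to 5 (APAF1, BBC3, BMF, CASP10 and CYCS). Over all genes tested the number rose as well, from 242 of 13668 to 1307 of 13936. Without knockdown 1, knockdown 2 or control 1 there were 0 such members, beside 33, 110 and 373 such genes in all. Depth limits BOK and HRK, with at most 14 and 20 counts.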

Other observations

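Pairs of libraries with a shared number had like values for several members. BIK was at 72.2 and 61.7 CPM and BCL2A1 at 1.41 and 0.88 CPM in the libraries numbered 3, against 28.7 to 37.3 and 2.51 to 9.78 CPM in the other 4. In log2 CPM over all genes, knockdown 3 and control 3 correlated at 0.995, the highest of the 15 combinations, while PRMT5 was at 52.99 and 158 CPM in them. Genes are not independent replicates, so the correlation describes the libraries only.

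CFLAR was at 222 CPM in knockdown 2 and between 75.4 and 95.6 CPM in the other 5 libraries. CASP8 to CFLAR, as a ratio of counts, was 0.125 in that library and 0.199 to 0.334 in the others.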
